A study of Mus musculus with 8 samples.

Results

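Aire and Fezf2 are the 2 genes described here, of 27514 genes found in all 8 count matrices, and they were taken by name and not by a cut on measured values, although earlier results of these data were known when they were chosen. Aire (ENSMUSG00000000731) and Fezf2 (ENSMUSG00000021743) encode transcriptional regulators of medullary thymic epithelial cells (mTEC). The data are single-cell RNA-seq counts of thymic epithelial cells (TEC), given as unique molecular identifiers (UMIs), which count captured mRNA molecules. The mice were WT animals of strain C57 B6 (CD45.2), and every library came from cells sorted as DAPI- EpCAM+ CD45-, that is, live epithelial cells without the blood cell marker. The E13.5 TEC library held total TEC. The E15.5 cTEC, E17.5 cTEC, NB (newborn) cTEC and adult cTEC libraries held Ly51+ UEA-1- cells, the gate for cortical TEC (cTEC), and the adult mTEC libraries held Ly51- UEA-1+ cells. Adult cTEC and adult mTEC had 2 libraries each and the other groups 1 each. Adult mice for sequencing were 4 to 6 weeks old, per the methods of the study, and whether libraries came from pooled animals is not given in the sources used here. Embryonic and newborn mTEC were not analysed here, so that the age series follows the cortical gate only.

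Medullary TEC present to developing T cells a large set of proteins that otherwise belong to single peripheral tissues, and T cells that recognise them are deleted or become regulatory. Aire releases the expression of many such tissue-restricted self-antigens, loss of it causes multi-organ autoimmunity, and it is made mainly in mature mTEC with high MHC class II and CD80. Fezf2, first known from forebrain neurons, is a zinc finger factor that drives a further set of self-antigens in mTEC, and its gene is reported to respond to lymphotoxin signalling, whereas Aire responds mainly to RANK and CD40 signalling through the NF-kB pathway.

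Both genes lie on the minus strand of GRCm38, at chr10:78030022-78043610 for Aire and chr14:12342094-12348189 for Fezf2 (GENCODE M21). Aire has 16 annotated transcripts, 11 of them coding with 12 to 14 exons, and Fezf2 has 3 with 4 to 6 exons. Bases before the start that the RefSeq promoter table gives for each gene are shown because both genes were read mostly in one gate. The Aire stretch is chr10:78043611-78043860 (250 bases, before the first exon) and the Fezf2 stretch is chr14:12345960-12346115 (156 bases, within an intron of the longest transcript). The Fezf2 stretch ends 94 bases before the start in that table, because an annotated exon of GENCODE M21 covers those bases, so its core promoter is not shown. The RefSeq span of Fezf2 reaches 12346803, so a further annotated start lies upstream of this stretch. Both are from RefSeq on build GRCm38.p6, minus strand, 5′ to 3′. Capitals mark TATAAA in Aire, 29 bases before the start, and, in Fezf2, a loose NF-kB pattern of GGG, any 5 bases and CC, of which 2 matches overlap.
Aire: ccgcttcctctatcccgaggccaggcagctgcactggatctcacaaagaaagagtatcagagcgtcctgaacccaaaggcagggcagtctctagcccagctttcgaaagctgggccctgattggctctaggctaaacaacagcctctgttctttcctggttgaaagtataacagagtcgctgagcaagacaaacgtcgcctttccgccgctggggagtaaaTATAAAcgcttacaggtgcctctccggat
Fezf2: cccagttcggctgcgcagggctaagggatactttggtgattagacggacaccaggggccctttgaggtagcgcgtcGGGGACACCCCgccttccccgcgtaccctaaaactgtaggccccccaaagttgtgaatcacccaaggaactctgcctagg
Searched on both strands in the 250 bases before the start, TATAAA was in 12.4% of 32851 promoters and had no match in the window of Fezf2, the part not printed included. The pattern of GGG, any 5 bases and CC was in 45.8% of promoters, with 4 matches in Fezf2 (of which 2 lie in the part not printed and overlap its GGGCGG) and none in Aire, and GGGCGG was in 32.7%, with 1 match in Fezf2 and none in Aire. These letters are a description of the windows and were not tied to any measurement.

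The matrices held 28334 called cells, of which 25097 passed the limits of the study on mitochondrial UMIs and detected genes and fell in no cluster of thymocyte-like, erythroid-like, parathyroid-like or thyroid-like cells. These are called epithelial-like, and they number from 493 (adult cTEC 1) to 8087 (E17.5 cTEC) per library with a median depth of 3920 to 11364 UMIs. The numbers 1 and 2 of the adult libraries name the 2 data sets in which the study captured its cells. No pair of libraries shared more than 1.17% of the barcodes of the smaller one. The summed level of the 10 cTEC markers was from 17622 to 27157 CPM (UMIs of a gene scaled to a common total per library) in adult cTEC and from 1659 to 1937 CPM in adult mTEC, without overlap. No Aire-positive cell outside adult mTEC shared its barcode with an adult mTEC library, and 1 Fezf2-positive cell of adult cTEC 2 did.

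Aire was read at high level in adult mTEC only. Its level was 435 CPM in adult mTEC 1 (7229 UMIs in 1585 cells, 95% Poisson interval 425 to 445) and 399 CPM in adult mTEC 2 (26848 UMIs in 5606 cells, 394 to 404). In adult cTEC it was 9.27 CPM in replicate 1 (20 UMIs, 5.66 to 14.3) and 2.76 CPM in replicate 2 (11 UMIs, 1.38 to 4.93). The groups did not overlap. Within a data set the level in mTEC was 46.9 times that in cTEC in data set 1 and 145 times in data set 2. In edgeR's quasi-likelihood test with data set as a term, the log2 fold change of adult mTEC over adult cTEC was 6.38 (SE 0.52, adjusted p = 2.09e-08, 2 libraries per group).

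Fezf2 had the same order of groups. It was at 524 CPM (8709 UMIs) in adult mTEC 1 and 466 CPM (31365 UMIs) in adult mTEC 2, and at 23.6 CPM (51 UMIs) and 8.27 CPM (33 UMIs) in adult cTEC 1 and 2, again without overlap. The ratio within a data set was 22.2 in data set 1 and 56.4 in data set 2, and the log2 fold change was 5.20 (SE 0.48, edgeR adjusted p = 6.60e-08). Of 15618 genes tested in this comparison, 20.0% were higher and 10.5% lower in adult mTEC at adjusted p under 0.05, so to be called was common. The libraries are not stated to come from separate animals, so that these p-values measure the spread between libraries, which may be technical. In sums over a library, fewer cells with a transcript and less transcript per cell cannot be told apart, which is why shares of cells follow.

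**Figure D1:**
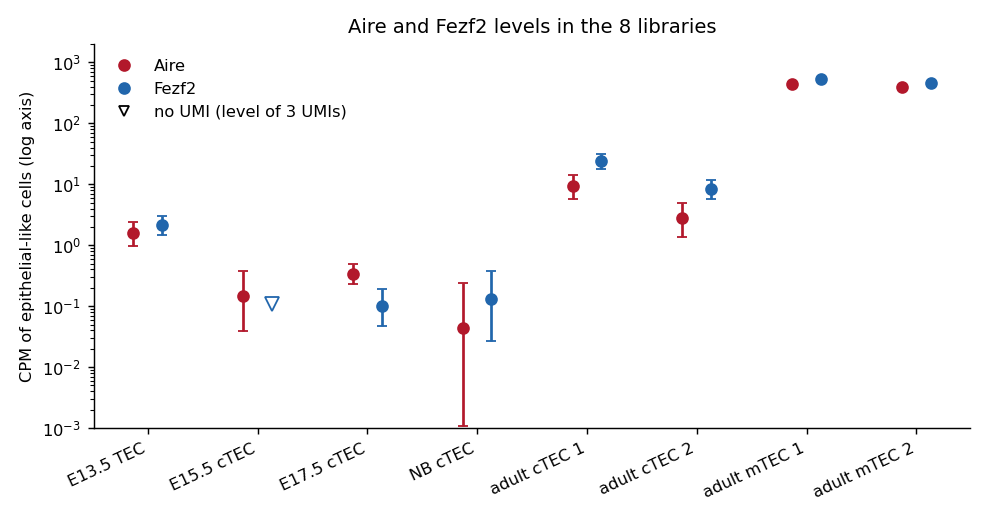
Level of Aire (red) and Fezf2 (blue) in the epithelial-like cells of each of the 8 libraries, in CPM on a log axis, with 95% Poisson intervals that cover counting error only. The open triangle marks no UMI and stands at the level of 3 UMIs, and both genes sit at 399 to 524 CPM in adult mTEC and at or under 23.6 CPM elsewhere.

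The UMIs of both genes in adult cTEC were held by few cells. Aire UMIs were in 8 of 493 cells (1.62%) of adult cTEC 1 and 4 of 526 cells (0.760%) of adult cTEC 2. In adult cTEC 1, 19 of the 20 Aire UMIs and 42 of the 51 Fezf2 UMIs were in 23 cells (4.67% of the library) that clustered with adult mTEC cells of the same data set, in a cluster led by S100a8 and Csn2. In adult cTEC 2, 40 cells (7.605%) lay in clusters made mostly of adult mTEC, and they held all 11 Aire UMIs and 27 of 33 Fezf2 UMIs. The 11 Aire UMIs were all in a cluster with 9 of these cells, led by Mt4 and Ccl5. Another 27 of the 40 cells were in a cluster led by Bpifa1 and held no Aire UMI. In adult cTEC 1 the 36 cells of a cluster led by Bpifa1 were not counted in this way, so the shares are of unlike sets. Outside the clusters made mostly of adult mTEC, Aire was at 1 UMI in 470 cells (0.488 CPM) in adult cTEC 1. In adult cTEC 2 it was at 0 of 486 cells, which allows a share of cells with a UMI of up to 0.617% among the cells left. Fezf2 outside them was at 9 UMIs (4.39 CPM) and 6 UMIs (1.604 CPM). Counting both genes, 5 cells of adult cTEC 1 and 3 of adult cTEC 2 had UMIs of each. In these both-positive cells Cd80, a costimulatory ligand of mature mTEC, was read with 3 UMIs and 1 UMI (104 CPM and 64.3 CPM), against 2 UMIs in each library in cells with neither gene (0.986 CPM and 0.512 CPM). Their median depth was 5425 and 4818 UMIs, against 3815 and 7195. The part of the sort in these cells was not tested. Aire and Fezf2 were left in when the clusters of a data set were made. The place of their UMIs in these clusters may thus be partly built in and is a description.

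Before the adult stage both genes were read at 2.14 CPM or less. In the E13.5 TEC library Aire was at 1.57 CPM (22 UMIs in 17 of 1799 cells) and Fezf2 at 2.14 CPM (30 UMIs in 14 cells). In E15.5 cTEC Aire was at 0.146 CPM (4 UMIs) and Fezf2 at 0 of 3564 cells, which allows a share of cells with a UMI of up to 0.0842% and does not limit expression below this depth. In E17.5 cTEC Aire was at 0.338 CPM (30 UMIs in 25 of 8087 cells) and Fezf2 at 0.101 CPM (9 UMIs in 7 cells). In NB cTEC Aire had 1 UMI and Fezf2 had 3 in 3437 cells. The counting intervals of E17.5 and E15.5 overlapped for Aire, as did those of E15.5 and NB, whereas E13.5 was above all 3 of these cTEC libraries for both genes.

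The few positive E13.5 cells were mostly in 1 cluster. At E13.5, 21 of the 22 Aire UMIs and all 30 Fezf2 UMIs were in 1 cluster of 391 cells led by Krtdap, Krt5, Pvrl4 and Krt19, in which Aire was at 6.16 CPM and Fezf2 at 8.80 CPM. Both genes were read together in 5 cells, where 0.132 cells would hold both if they were independent over all 1799 cells. Nearly all positive cells lay in this cluster and were deeper than the others, so this figure is too low for a comparison within it. Of the 17 Aire-positive cells, 16 lay in this cluster. Cells of the cluster without Aire were not read apart, so the contrasts that follow may be those of the whole cluster. The 17 Aire-positive cells had Krt5, a keratin of basal and medullary epithelium, at 3976 CPM against 623 CPM in cells with neither gene. Tnfrsf11a, which encodes RANK, was at 104 CPM against 5.38 CPM, and H2-Aa, an MHC class II chain, at 1300 CPM against 108 CPM. Psmb11, the thymoproteasome subunit of cTEC, was at 57.5 CPM against 251 CPM, while Prss16, a cTEC protease, was at 489 CPM against 520 CPM. A UMI of either was in 15 of the 17 cells (88.2%) and in 83.5% of cells with neither gene. The median depth was 9594 UMIs against 7141. No test was made with 1 library. Both genes were left in when the clusters of the data set were made, so their place in 1 cluster is a description. At E17.5 all 25 Aire-positive cells had a UMI of Psmb11 or Prss16, as did all 8055 cells with neither gene. In them Tnfrsf11a was at 9.69 CPM against 2.91 CPM, Cd80 had no UMI in them, and no cell held both genes.

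Over the 6 libraries from E13.5 TEC to adult cTEC, neither gene passed the test for a change with stage rank. The log2 slope per stage was 0.72 for Aire (SE 0.48, edgeR adjusted p = 0.371) and 1.08 for Fezf2 (SE 0.62, adjusted p = 0.307), where 5.0% of 14307 genes rose and 3.01% fell with stage. Without adult cTEC 1 the slopes were -0.74 (SE 0.91) for Aire and -0.52 (SE 1.33) for Fezf2. The errors exceed these values, so the sign of the slopes is not determined. Without E13.5 TEC, which is not a cTEC gate, Fezf2 rose by 3.79 per stage (adjusted p = 0.00751) and Aire had a slope of 1.78 (adjusted p = 0.0911). With the cells of clusters made mostly of adult mTEC left out, the Fezf2 slope was 0.39 (edgeR adjusted p = 0.702) and Aire was too low to be fitted. Per the methods of the study, embryonic thymi were dissociated with trypsin and were not enriched. Newborn and adult thymi were digested with Liberase and enriched on Percoll. Stage and preparation thus cannot be told apart between the embryonic libraries and the later ones.

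In adult mTEC most cells had at least 1 UMI of either gene. Since a deeper cell shows a rare transcript more often, each cell was thinned to 4000 UMIs, which kept 1534 cells of adult mTEC 1 and 5253 of adult mTEC 2. Aire was then read in 44.1% of cells in adult mTEC 1 (95% Clopper-Pearson interval 41.6 to 46.6) and 57.7% in adult mTEC 2 (56.3 to 59.0). Fezf2 was read in 63.7% (61.2 to 66.1) and 68.0% (66.7 to 69.3). At full depth the shares were 51.5% and 74.9% for Aire and 76.3% and 84.4% for Fezf2, at median depths of 9470 and 11364 UMIs. In the adult cTEC cells outside the mTEC clusters, the share with an Aire UMI was 1 of 470 and 0 of 486 cells at full depth. Those libraries held little Aire RNA, so this is no background for adult mTEC. Within adult mTEC the lowest cluster share at 4000 UMIs was 2.56% in adult mTEC 1 and 22.1% in adult mTEC 2, and 2 of 7 thymocyte-like cells of adult mTEC 2 held an Aire UMI. The part of free RNA in these shares was not tested. Fezf2 was thus read in more cells than Aire in both libraries. A positive cell held on average 8.85 Aire and 7.20 Fezf2 UMIs in adult mTEC 1, and 6.39 and 6.63 in adult mTEC 2. The 10% of cells with the most Aire UMIs held 46.2% and 39.9% of all of them, and for Fezf2 40.9% and 36.8%.

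At 4000 UMIs 35.8% of cells in adult mTEC 1 (549 cells) and 42.1% in adult mTEC 2 (2213 cells) were positive for both, against 28.1% and 39.2% if the 2 genes were read independently. Fezf2 alone was read in 27.9% (428 cells) and 25.9% (1360 cells). Aire alone was read in 8.28% (127 cells) and 15.53% (816 cells), and neither in 28.0% (430 cells) and 16.4% (864 cells). The order of the classes depends on the depth: at 2000 UMIs neither was the largest class, with 40.8% and 32.3% against 21.4% and 23.1% for both, and with at least 2 UMIs for a positive cell it was 46.0% and 41.1% against 19.0% and 17.51%. Of the Aire-positive cells of adult mTEC 1, 81.2% also had Fezf2, and of the Aire-negative cells 49.9% had it. The contrast was smaller in adult mTEC 2, where 2213 of 3029 Aire-positive cells and 61.2% of the Aire-negative cells had Fezf2. The odds ratio of reading both was 4.34 (exact interval 3.41 to 5.54) in adult mTEC 1 and 1.72 (1.53 to 1.94) in adult mTEC 2. These intervals cover counting error only and do not overlap between the libraries. Depth moved with the classes even after thinning: the median full depth was 12777 and 13787 UMIs in both-positive cells against 7244 and 9332 UMIs in cells with neither, and its part in the association was not tested. Within cells of the lowest, middle and highest depth (3 classes of near-equal size) the odds ratio was 2.166, 3.42 and 3.41 in adult mTEC 1 and 1.33, 1.63 and 1.68 in adult mTEC 2. Within clusters it was 2.02 and 1.11, nearer to 1 than over all cells in both libraries.

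The share of cells with one gene was also read by the UMIs of the other. In adult mTEC 1 the share of cells with Fezf2 was 49.9% at 0 Aire UMIs, 78.7% at 1, 84.9% at 2 to 4, 78.8% at 5 to 9 and 68.8% at 10 or more, where 16 cells were left and the interval ran from 41.3 to 89.0%. In adult mTEC 2 it was 61.2%, 68.2%, 75.7%, 78.5% and 88.0% over the same classes. From 2 to 4 UMIs upward the intervals of the classes overlapped within each library, and no difference in shape between the libraries was tested. Read the other way, Aire was in 22.8% of cells without Fezf2 and 71.2% of cells with 3 or more Fezf2 UMIs in adult mTEC 1, and in 48.6% and 68.6% in adult mTEC 2.

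**Figure D2:**
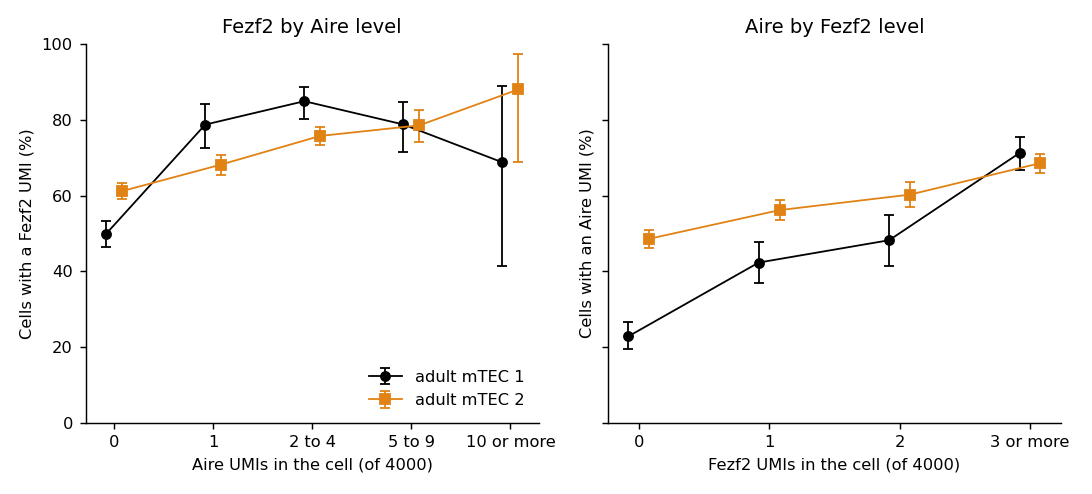
Share of adult mTEC cells with a Fezf2 UMI by Aire UMIs in the cell (left) and with an Aire UMI by Fezf2 UMIs (right), after thinning to 4000 UMIs per cell, with 95% Clopper-Pearson intervals (counting error only); black circles are adult mTEC 1 and orange squares adult mTEC 2. In adult mTEC 1 the Fezf2 share goes from 49.9% to 84.9% at 2 to 4 Aire UMIs and is 68.8% in the 16 cells of the last class, while in adult mTEC 2 it runs from 61.2% to 88.0%, with overlapping intervals from 2 to 4 UMIs upward in both libraries.

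Across the clusters of adult mTEC 1 the share of cells with Aire ran from 2.56% to 92.1%, and in adult mTEC 2 from 22.1% to 93.6%. These clusters, unlike those of a data set, were made and named without the 2 genes themselves. Genes that go with them took part, so the shares are given as a description with no test. In adult mTEC 1 the clusters highest in Aire were cluster 1 (945 CPM, 88.8% of thinned cells, led by Fabp6, Sprr2i and S100a8) and cluster 3 (827 CPM, 92.1%, led by Atp4b and Thrsp). Fezf2 was in 72.5% of cells of cluster 1 and 94.6% of cluster 3, which had both genes in 87.2% of its cells. Cluster 1 also carried 5 of 8 myeloid and 5 of 6 erythroid markers, and their part in its levels was not tested. In adult mTEC 2 cluster 5 (827 CPM, led by Crhbp and Prph) had Aire in 93.6% and Fezf2 in 77.3% of its cells, and cluster 7 (703 CPM, led by Thrsp, Ccr10 and Fgf21) had Aire in 86.1% and Fezf2 in 86.6%.

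In the mTEC I-like clusters, which carry 6 of 7 markers of immature or junctional mTEC such as Ccl21a and Krt5, Fezf2 was read where Aire was scarce. Aire was in 2.56% and 4.0% of cells (6.33 and 12.6 CPM) in the 2 mTEC I-like clusters of adult mTEC 1, while Fezf2 was in 36.3% and 42.9% (152 and 175 CPM). In the mTEC I-like cluster of adult mTEC 2 Aire was in 25.1% (75.4 CPM) and Fezf2 in 50.7% (205 CPM). The mTEC III-like cluster of adult mTEC 2, with 10 of 10 cornified markers, had Aire in 23.6% and Fezf2 in 63.5% of its cells. The cycling-like clusters had Aire in 72.4% and Fezf2 in 78.6% of cells in adult mTEC 1, and 64.5% and 80.9% in adult mTEC 2.

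The mimetic clusters, whose cells carry programs of peripheral cell types, had smaller shares of both genes than adult mTEC 2 as a whole. In adult mTEC 2 the tuft-like cluster had Aire in 22.1% and Fezf2 in 33.1% of cells (87.7 and 144 CPM). The neuroendocrine-like cluster had 33.3% and 37.5%, the microfold-like cluster 32.4% and 47.9%, and the ciliated-like cluster 42.9% and 52.4% of 21 thinned cells. In adult mTEC 1 the tuft-like cluster held 14 cells, of which 12 were deep enough, 2 with Aire and 1 with Fezf2. In each named cluster of adult mTEC 2 more cells had Fezf2 than Aire, although the intervals of the tuft-like (15.4 to 30.0% against 25.3 to 41.7%), neuroendocrine-like (22.7 to 45.4% against 26.4 to 49.7%), microfold-like and ciliated-like clusters overlapped.

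**Figure D3:**
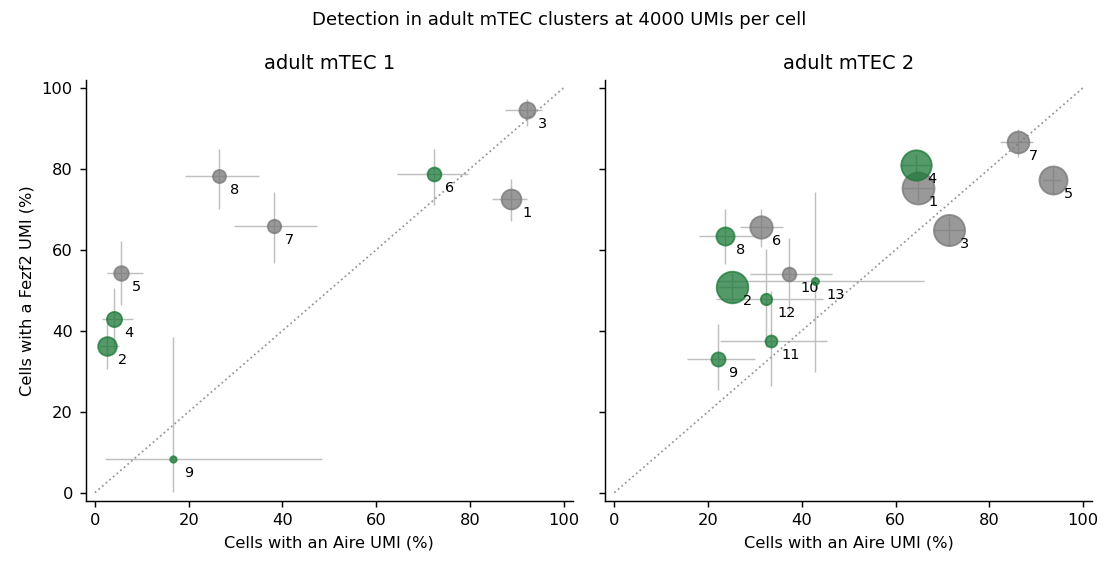
Share of cells with an Aire UMI (horizontal) and with a Fezf2 UMI (vertical) in each cluster of the 2 adult mTEC libraries at 4000 UMIs per cell, with 95% Clopper-Pearson intervals as grey lines; the area of a point follows the number of cells, green clusters were named from markers (adult mTEC 1: 2 and 4 mTEC I-like, 6 cycling-like, 9 tuft-like; adult mTEC 2: 2 mTEC I-like, 4 cycling-like, 8 mTEC III-like, 9 tuft-like, 11 neuroendocrine-like, 12 microfold-like, 13 ciliated-like), and the dotted line marks equal shares. Aire runs from 2.56% to 92.1% in adult mTEC 1, and the clusters with Aire in at most 38.2% of cells lie above the line, except the tuft-like cluster of adult mTEC 1 with 12 thinned cells.

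To see which genes went with each member, the thinned cells were summed per library into cells with neither gene, Aire only, Fezf2 only and both, and the 4 classes were compared with library as a term. With edgeR no gene of 13386 passed an adjusted p under 0.05 in any of the 4 comparisons (0.0% called in each). At an unadjusted p under 0.05 there were 3086 genes for Aire only against neither, 436 for Fezf2 only against neither, 2144 for Aire only against Fezf2 only and 451 for both against Aire only. The smallest adjusted p of Aire only against neither was 0.0510, for Cd74, the MHC class II invariant chain. DESeq2 called 791 genes for Aire only against neither (639 higher and 152 lower, 5.07% and 1.21% of those tested), 245 for Aire only against Fezf2 only (230 higher and 15 lower, 1.79% and 0.117%), 3 for Fezf2 only against neither and 0 for both against Aire only. The tools thus differ on whether any gene passed, and the values below are given by both or as levels. The edgeR count itself moved with the settings: for Aire only against neither it ran from 0 to 1621 over those given at the end.

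Of the Aire-dependent self-antigens DESeq2 called 6 of 12 higher in Aire only cells than in cells with neither gene and none lower, where 5.07% of all genes were called higher and 1.21% lower, and edgeR called none. All 12 measured genes of this list, which were chosen with earlier results of these data known, had a positive log2 fold change of Aire only over neither, 9 of them with that sign in both libraries, and their median was 2.14 against -0.02 over all genes. Csn2, a milk casein, was at 159 CPM in cells with neither gene and 2177 CPM in Aire only cells of adult mTEC 1, and at 522 and 1159 CPM in adult mTEC 2 (DESeq2 adjusted p = 0.00256, edgeR log2 fold change 2.36, SE 0.54). S100a8, a calcium-binding protein of neutrophils, was at 154 and 1689 CPM, and at 442 and 1460 CPM (DESeq2 adjusted p = 3.72e-05). Ins2, an insulin gene, was at 6.395 and 128 CPM in adult mTEC 1, but at 61.1 and 72.0 CPM in adult mTEC 2. For these 3 genes the difference was larger in adult mTEC 1 than in adult mTEC 2, and cells with neither gene in adult mTEC 2 were already above those of adult mTEC 1.

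For Fezf2 only against neither few genes were called by DESeq2 and none by edgeR. The 12 Aire-dependent self-antigens had a median log2 fold change of 0.23 in Fezf2 only over neither (7 positive), and the 9 measured Fezf2-linked self-antigens had 0.13 (5 positive), against 0.00 over all genes. For Aire only over neither the Fezf2-linked list had a median of 0.95 (7 of 9 positive), with 3 genes called higher by DESeq2, beside the 5.07% of all genes. Fabp7, a fatty acid-binding protein of glia, was at 1.16 CPM in cells with neither, 9.35 in Fezf2 only, 82.7 in Aire only and 24.1 in both in adult mTEC 1, and at 10.4, 3.49, 29.1 and 18.6 CPM in adult mTEC 2. Resp18, a neuroendocrine secretory granule protein, was at 22.7, 148, 37.4 and 54.2 CPM in adult mTEC 1, but at 163, 170, 117 and 109 CPM in adult mTEC 2. The Fezf2 only excess over neither was thus large in adult mTEC 1 and small in adult mTEC 2. The 2 genes of DESeq2's 3 calls that the naming rule took for Fezf2 only against neither were Sprr2a3, a cornified envelope protein (201 and 104 CPM in neither, 8.18 and 27.6 in Fezf2 only), and the tuft cell gene Lrmp (49.4 and 143 CPM, against 5.84 and 31.4), both lower. All 10 tuft markers had a negative log2 fold change in Fezf2 only cells, with a median of -1.61 and 2 called lower by DESeq2, which called 3 genes in all. All 10 also had one in Aire only cells, with a median of -1.16 and 1 called lower, where 1.21% of all genes were called lower.

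**Figure D4:**
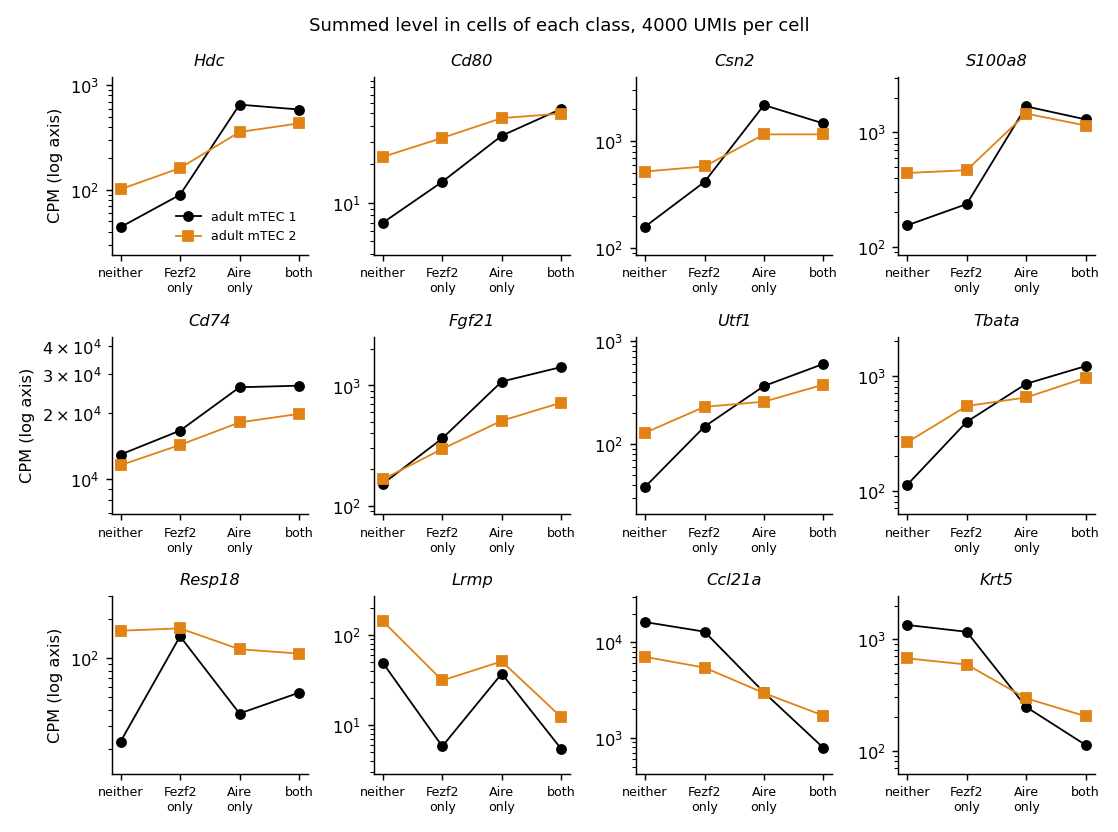
Summed CPM (log axis) of 12 genes in adult mTEC cells with neither gene, Fezf2 only, Aire only or both, at 4000 UMIs per cell, with 1 point per library (black circles adult mTEC 1, orange squares adult mTEC 2). Hdc, Csn2 and S100a8 are higher in Aire only than in Fezf2 only cells in both libraries, Resp18 differs between the libraries, and Lrmp, Ccl21a and Krt5 are highest in cells with neither gene.

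Of the genes of antigen presentation some were called by DESeq2 and none by edgeR. Of 15 genes for MHC class II and costimulation, 14 had a positive log2 fold change of Aire only over neither (median 0.85, with 8 called higher and none lower by DESeq2, where 5.07% of all genes were called higher), and 12 had one of Fezf2 only over neither (median 0.33). H2-Aa was at 4338, 5465, 8919 and 8903 CPM in neither, Fezf2 only, Aire only and both in adult mTEC 1, and at 4696, 5813, 7398 and 7956 CPM in adult mTEC 2. Cd40, the receptor of CD40 ligand, was at 53.5, 81.8, 309 and 267 CPM, and at 77.3, 91.5, 162 and 169 CPM. Cd80 was at 6.98, 14.6, 33.5 and 54.2 CPM, and at 22.9, 32.2, 46.0 and 49.8 CPM (DESeq2 adjusted p = 0.0744 for Aire only over neither). Hdc, which makes histamine, was at 44.2, 90.0, 654 and 587 CPM, and at 101.6, 162, 358 and 433 CPM. In these 4 genes Fezf2 only cells lay between cells with neither gene and Aire only cells in both libraries. Against them stood the mTEC I markers, 6 of 7 of which had a negative log2 fold change in Aire only cells (median -1.37, DESeq2 4 lower and 1 higher, where 1.21% of all genes were called lower), with Ccl21a, a chemokine read from near-identical copies and so uncertain, at 16286, 12917, 2988 and 783 CPM in adult mTEC 1 and 7034, 5435, 2942 and 1703 CPM in adult mTEC 2.

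By the naming rule applied to DESeq2's calls, the 8 genes with the largest excess in Aire only over neither were Klk4, Fabp6, Reg3b, Ccl1, Gm13539, Dcpp1, Cryaa and Rarres1. Fabp6, an ileal bile acid carrier, was at 583 against 9.88 CPM in adult mTEC 1 and 499 against 123 CPM in adult mTEC 2 (DESeq2 log2 fold change 3.72, adjusted p = 0.000468). Cryaa, a lens crystallin, was at 157 against 4.07 CPM and 60.4 against 16.8 CPM. The 8 most reduced were Cyp2f2, Scx, Pxdc1, Mgp, Sprr2a3, Anxa1, Apoe and Hpgd, where Apoe, a lipid carrier, was at 262 against 2539 CPM and 484 against 1006 CPM. For Aire only over Fezf2 only the highest were Ccl1, Gm13539, Obp2a, Gip, Apoa2, Rarres1, Sprr2i and Gm29461, and the lowest Bpifa1, Matn1, Dapl1, Wfdc18, Fstl1, Emp2, Lgals7 and Pdlim3. Gip, an incretin hormone of the gut, was at 205 against 5.26 CPM in adult mTEC 1 and 111 against 45.2 CPM in adult mTEC 2. Matn1, a cartilage matrix protein, was at 11.8 against 84.7 CPM and 14.7 against 41.0 CPM.

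Of the blood cell markers DESeq2 called 3 of 5 erythroid, 3 of 6 myeloid and 1 of 4 thymocyte genes higher in Aire only than in neither, with none lower, where 5.07% of all genes were called higher and 1.21% lower, and edgeR called none. All 5 measured erythroid markers and all 6 myeloid markers had a positive difference of Aire only over neither. The summed erythroid level was 161 against 21.5 CPM in adult mTEC 1 and 200 against 61.3 CPM in adult mTEC 2, and the summed myeloid level 762 against 57.0 CPM and 579 against 319 CPM. Most of the myeloid sum was Lyz2 (589 against 43.6 CPM and 489 against 277 CPM), whereas Cd68 was at 1.97 against 5.23 CPM and 10.7 against 6.37 CPM. Itgax had no UMI in Aire only cells of adult mTEC 1. The summed thymocyte level was 102.4 against 13.95 CPM and 50.6 against 24.0 CPM, with Cd3e and Cd8a at 0 in Aire only cells of adult mTEC 1. Their part in the class differences was not tested. The share of cells with a UMI of Mki67 or Top2a was 15.7% in Aire only and 5.81% in neither in adult mTEC 1, and 18.6% and 16.1% in adult mTEC 2. Without such cells DESeq2's test was not repeated, and edgeR called 3 genes, all higher in Aire only cells.

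For cells with both genes against Aire only cells no gene passed with edgeR or DESeq2, with 451 genes at an unadjusted p under 0.05 in edgeR. The median log2 fold change of the Aire-dependent self-antigens was -0.30 (2 of 12 positive), that of the Fezf2-linked self-antigens -0.45 (2 of 9 positive) and that of the MHC class II and costimulation genes 0.09 (11 of 15 positive), against -0.01 over all genes. Lrmp was at 37.4 CPM in Aire only and 5.46 in both in adult mTEC 1 and at 51.2 and 12.3 CPM in adult mTEC 2 (edgeR log2 fold change -2.25, SE 0.39, unadjusted p = 0.000749). A difference that misses the threshold does not show that the classes are alike, and adult mTEC 1 had 127 Aire only cells.

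Across single cells, the 10 genes most like Aire by mean Pearson r over the 2 libraries (1534 and 5253 thinned cells, 6378 genes) were Srgn, Cyba, S100a14, Hdc, Nsmce1, Calcb, Lrrc42, Csn2, Ing1 and Cd74. Srgn, a proteoglycan of secretory granules, had r of 0.67 in adult mTEC 1 and 0.45 in adult mTEC 2. The 10 most like Fezf2 were S100a14, Utf1, Ing1, Tbata, Cyba, Hagh, Cd74, Lrrc42, Fgf21 and Srgn, with r of 0.46 and 0.27 for S100a14, an S100 protein of epithelia. The lists share 6 genes. Aire and Fezf2 themselves had r of 0.37 and 0.19, which placed Fezf2 97th among the genes most like Aire and Aire 13th among those most like Fezf2. Least like Aire were Ifitm3, Ccl21a, Krt5, Ctsl and Cald1, and least like Fezf2 were Ccl21a, Anxa2, Rtp4, Ctsl and Isg15. The median r over all genes was -0.02 with Aire and 0.00 with Fezf2. The cells of a library share its depth and composition, so these values are descriptions.

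Genes known to act upstream of the 2 members were compared between adult mTEC and adult cTEC. In the RANK, CD40, LTBR and NF-kB pathway 8 of 26 tested genes were higher and 3 lower in adult mTEC than in adult cTEC (30.8% and 11.5%, against 20.0% and 10.5% of all genes tested), with a median log2 fold change of 0.55 against 0.14 over all genes. Tnfrsf11a, which encodes RANK, was at 83.9 and 80.2 CPM in adult mTEC against 11.6 and 4.76 CPM in adult cTEC (log2 fold change 3.52, SE 0.44, edgeR adjusted p = 3.49e-06). Tnfrsf11b, its soluble decoy osteoprotegerin, was at 130 and 71.3 CPM against 6.02 and 5.51 CPM. Ltbr, the lymphotoxin beta receptor, fell to 20.3 and 15.02 CPM from 48.2 and 55.9 CPM (log2 fold change -1.51, SE 0.39, adjusted p = 0.00589). Of the NF-kB subunits, Relb (242 and 245 CPM against 95.9 and 76.4 CPM) and Nfkb2 (147 and 173 CPM against 65.8 and 32.3 CPM), the alternative pathway pair, rose, and Rela and Nfkb1 did not pass the test (adjusted p = 0.837 and 0.103). Of 15 MHC class II and costimulation genes 7 rose, Cd80, Cd86, Cd40, Icosl, Pdcd1lg2, H2-Oa and H2-Ob, and Cd274, which encodes PD-L1, fell from 290 and 153 CPM to 40.4 and 20.6 CPM.

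The reported partners of Aire were compared in the same way. Of 26 tested, 2 were higher and 2 lower in adult mTEC (7.69% each way, against 20.0% and 10.5% of all genes tested), with a median of -0.12. Sirt1, a deacetylase of Aire, was at 101 and 95.4 CPM against 19.9 and 13.3 CPM (log2 fold change 2.66, SE 0.39, edgeR adjusted p = 2.37e-05), and Top2a, also a marker of dividing cells, was the other higher gene. Xrcc5 and Daxx were lower. Hipk2 (0.20, adjusted p = 0.759) and Chd4 (-0.72, adjusted p = 0.173), a chromatin remodeller listed for both members, did not pass the test. Of 11 relatives of Fezf2 and subunits of the Chd4 complex, only Fezf1, the closest paralog of Fezf2, was called higher. It was at 2.65 and 3.06 CPM in adult mTEC with no UMI in adult cTEC, so it passed the filter only through adult mTEC and could not have come out lower. It was at least 5.85-fold higher, taking 3 UMIs over both adult cTEC libraries as the floor.

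Self-antigens of both lists were compared between adult mTEC and adult cTEC. Of the Aire-dependent self-antigens 12 of 15 listed were tested, and 6 of these had no UMI in adult cTEC, passed the filter only through adult mTEC and so could not have come out lower. The other 6 were all called higher. Of the 9 tested Fezf2-linked self-antigens, of 10 listed, 2 were at 0 in adult cTEC in the same way, and 5 of the other 7 were called higher and none lower, where 20.0% of all genes were higher and 10.5% lower. Both lists were chosen with earlier results of these data known, so these counts are a description. Csn2 was at 907 and 895 CPM in adult mTEC against 25.02 and 8.02 CPM in adult cTEC (log2 fold change 6.04, SE 0.52, edgeR adjusted p = 3.77e-08). Ppy, a pancreatic hormone, was at 58.6 and 70.3 CPM and had no UMI in adult cTEC, at least 132-fold higher. Krt10 and Col17a1 of the Fezf2-linked list did not pass the test (adjusted p = 0.955 and 0.185).

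**Figure D5:**
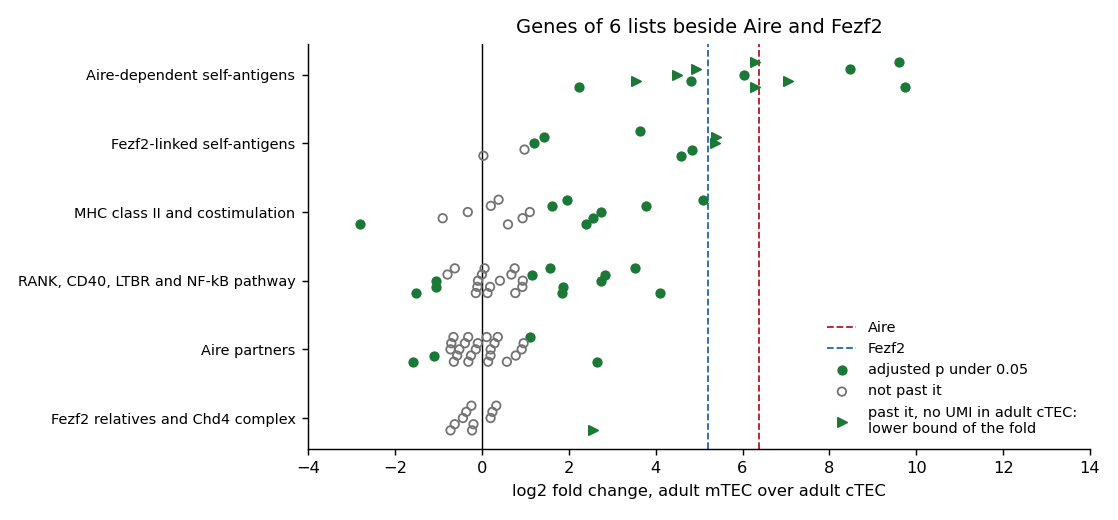
Log2 fold change of adult mTEC over adult cTEC for each tested gene of 6 lists, with Aire (red, 6.38) and Fezf2 (blue, 5.20) as dashed lines; filled points passed an edgeR adjusted p of 0.05, open points did not, and triangles are lower bounds of genes that passed and had no UMI in adult cTEC. The 6 Aire-dependent self-antigens with UMIs in adult cTEC lie to the right of 0, as do the 6 drawn at their bound, while the Aire partners and the Chd4 complex spread around it.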

How the data were processed

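The authors captured sorted cells with Chromium version 2 chemistry as 2 data sets and deposited raw UMI counts per gene and cell; the submitters' processing notes name bcl2fastq 2.17, STAR 2.5.1b, Cell Ranger 2.0.1 and mm10. The matrix headers of the second data set (3 matrices) give software version 3.0.1 instead, and the other 5 give none, so processing may have differed between the data sets. Growth notes in the labels speak of bone marrow, whereas the tissue is given as thymus. The members and gene lists were chosen with earlier results of these data known.

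Cells with over 5% mitochondrial UMIs or over 5000 genes were left out, as were clusters (2000 variable genes, 20 principal components, Leiden resolution 0.8) in which at least 3 and most markers of a non-epithelial class were 4-fold up. Doublets were addressed only by the gene limit and by leaving out the 10% deepest cells. Counts were summed per library and tested with edgeR 4.0.16 (quasi-likelihood, TMM, filterByExpr, data set as a term), with Benjamini-Hochberg adjustment over all genes and a threshold of 0.05. DESeq2 1.42.0 was the alternative. Data set and adult replicate number are the same split, since the numbers name the data sets. For classes, cells were thinned to 4000 UMIs, and a cell was positive with at least 1 UMI. An mTEC cluster took a name when at least 3 and most of its markers were 2-fold up. Myeloid and erythroid markers gave no name here, and a cluster that met the rule for several classes was called mixed. Genes named from the classes were to be the 8 with the largest change each way among calls with average log2 CPM above 5 and the same sign in both libraries. As edgeR called none, this rule was applied to DESeq2's calls after the counts were seen. Likeness was Pearson r over genes detected in at least 5% of thinned cells of both libraries. Intervals are 95% and cover counting error only. The fits were also run on simulated data with known changes. The outcome is not reported here, so this lends no weight to the calls. Annotation was GENCODE M21, and promoters were from RefSeq. Protein sequences were not used here.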

Additional observations from a re-analysis of the deposited data

How the results depend on the processing

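The differences of both genes between adult mTEC and adult cTEC kept their direction and passed the threshold under all 7 other settings, from 6.29 to 11.22 for Aire and from 5.09 to 7.599 for Fezf2 (log2). The upper values come from leaving out cells of clusters made mostly of adult mTEC, an alternative chosen after seeing the data. The cells left out held 19 of 20 Aire UMIs of adult cTEC 1 and all 11 of adult cTEC 2. For Fezf2 they held 42 of 51 and 27 of 33 UMIs. A larger fold was thus fixed in advance, and this setting is no check. The others reached 6.46 and 5.26. The block of replicate number is the data set term, and without it the values were 6.29 for Aire and 5.09 for Fezf2. Leaving out 1 library gave 5.67 to 7.22 for Aire and 4.59 to 5.86 for Fezf2, as values with no test, since no residual degrees of freedom were left.

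The slopes turned to -0.74 (Aire, SE 0.91) and -0.52 (Fezf2, SE 1.33) without adult cTEC 1, with errors above the values themselves. Without adult cTEC 2 the slopes were 0.61 and 0.88. Fezf2 passed the threshold only without E13.5 TEC, at 3.79. With cells of the mTEC clusters left out Aire gave no value. Other settings changed neither the direction nor the call of a slope.

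For Aire only against neither, the edgeR count of 0 became 990 with no filter, 25 at 2000 UMIs, 1621 with at least 2 UMIs for a positive cell and cells with 1 UMI left out and 3 without cells with a UMI of Mki67 or Top2a, and DESeq2 called 791. For Fezf2 only against neither it became 1 with no filter, with 3 by DESeq2. For Aire only against Fezf2 only it became 186 with no filter and 22 with at least 2 UMIs, with 245 by DESeq2. For both against Aire only it was 0 under all 8 settings. Leaving out a library leaves no residual degrees of freedom here, so that was not tested. The cause of these differences was not tested.

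As means of the 2 libraries, the Aire share of 50.9% was 63.2% without thinning, 37.3% at 2000 UMIs and 32.4% with at least 2 UMIs. The Fezf2 share of 65.9% was 80.3%, 48.3% and 42.3%, and the share with both, 39.0%, was 57.0%, 22.2% and 18.2%. The odds ratio of 3.03 was 5.25 without thinning. By single library the shares ran from 44.1 to 57.7%, 63.7 to 68.0% and 35.8 to 42.1%, and the odds ratio from 1.72 to 4.34. Depth limits every share: a cell without a UMI of a gene may still express it.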

Other observations

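Cells that were left out of the comparisons held both genes in adult mTEC. In adult mTEC 1, the 232 cells over the limits on mitochondrial UMIs or genes had Aire at 486 CPM and Fezf2 at 445 CPM, and the 1408 such cells of adult mTEC 2 had them at 394 and 424 CPM. The 45 such cells of adult cTEC 2 had no Aire UMI and 5 Fezf2 UMIs in 2 cells (34.3 CPM, against 8.27 CPM in its epithelial-like cells). The 7 thymocyte-like cells of adult mTEC 2 had 2 Aire and 5 Fezf2 UMIs, while the 14 thymocyte-like cells of adult cTEC 1, the 168 of NB cTEC and the 31 of E17.5 cTEC had none of either gene. The 123 parathyroid-like and 59 thyroid-like cells at E13.5 and the 232 erythroid-like cells at E17.5 had no UMI of either gene.

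Some further genes had different levels in the 4 classes of adult mTEC, and edgeR called none of them. Of 5 muscle genes tested, 3 had a positive edgeR log2 fold change of Aire only over neither (median 0.64). DESeq2 called Ttn higher (adjusted p = 0.00257) and Myog lower, where 5.07% of all genes were called higher and 1.21% lower. Myog, a muscle regulator, was at 12.8, 5.26, 0 and 8.65 CPM in cells with neither gene, Fezf2 only, Aire only and both in adult mTEC 1, and at 43.4, 8.64, 4.60 and 7.12 CPM in adult mTEC 2 (DESeq2 adjusted p = 0.0158 for Aire only against neither). The chemokine Ccl17 was at 3.49, 2.34, 49.2 and 95.2 CPM, and at 38.8, 37.1, 140 and 110 CPM. Irf7, an interferon regulator, was at 555, 353, 124 and 66.5 CPM, and at 218, 137, 120 and 66.5 CPM.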
